A study of Mus musculus with 2 samples.

Results

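Eph receptors form a large family of receptor tyrosine kinases in mammals, and 9 of their genes were examined here for binding of NANOG, a homeodomain protein that helps to keep embryonic stem cells pluripotent: Epha1, Epha2, Epha4, Epha5, Epha7, Ephb1, Ephb2, Ephb3 and Ephb4. They are 9 of 14 Eph receptor genes looked up and of 21539 protein-coding genes with a position and strand. The set was chosen by measured values, namely the number, spacing, rank and replicate support of the peaks, and above all for the dense group of peaks at Epha4, so these values are a description without a test. Binding was mapped by chromatin immunoprecipitation and sequencing (ChIP-seq) with an antibody to NANOG in E14TG2a.4 cells, an embryonic stem cell line that the labels give as male, of the 129/Ola strain and of age 3.5 days. The labels give 1 group of 2 biological replicates, each with 1 technical replicate, and both share donor, line and antibody. No treatment, control group or measure of expression was part of these data, so the cell identity could not be checked against marker genes. For each gene, the peaks counted were those whose summit, the position of highest enrichment, lay in the gene body or within 100 kb of the transcription start site (TSS) on mouse build mm10.

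Eph receptors are bound by ephrins, which are themselves anchored in the membrane of a neighbouring cell, so signalling takes place at cell contacts and can run into both cells. EphA receptors mostly bind ephrin-A ligands, which are tethered by a lipid anchor, and EphB receptors mostly bind the transmembrane ephrin-B ligands, while EphA4 binds ligands of both classes. The family is known for repulsive axon guidance, for boundaries between tissues and for sorting of cells in the early embryo.

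The sequences at the centres of the main peaks are shown first, since they are the DNA the results refer to. They come from the list the authors made on build mm9 from both replicates, in which 21 peaks fell in the windows of the 9 genes and 9 of these at Epha4. Each window holds 200 bases around the middle of the region. These regions have no summit and a median width of 871 bp at the Eph receptor genes, so a bound site can lie outside the window. Capitals mark matches on either strand to CTTTGT or CATTGT (forms of the SOX site), ATGCAAAT (the octamer bound by OCT factors), TAATGG (a NANOG homeodomain site), CAAGGTCA (the ESRRB site) or GGGNGTGG (a KLF site), or to a joint SOX2 and OCT4 site, made of CATTGT and ATGCAAAT with 1 base between them and with up to 2 mismatches, which thus overlaps both of these motifs. At Epha4 the lines give the peak nearest to the TSS and the 3 peaks between 67.9 and 74.4 kb into the gene, which include the highest 2 of the locus by enrichment on mm9 (12.08 and 11.08). Epha4, Ephb1 and Epha1 are transcribed from the minus strand, so all 7 lines read against the gene.
Epha4, 12.5 kb downstream (chr1:77499112-77499311, plus strand): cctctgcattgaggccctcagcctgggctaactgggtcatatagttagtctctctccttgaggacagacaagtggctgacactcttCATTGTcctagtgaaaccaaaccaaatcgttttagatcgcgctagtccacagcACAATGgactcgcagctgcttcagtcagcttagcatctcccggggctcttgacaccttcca
Epha4, 67.9 kb downstream (chr1:77443701-77443900, plus strand): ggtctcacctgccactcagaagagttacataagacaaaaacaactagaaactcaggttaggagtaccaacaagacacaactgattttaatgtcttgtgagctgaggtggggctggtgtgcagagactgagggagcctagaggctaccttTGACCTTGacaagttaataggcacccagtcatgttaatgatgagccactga
Epha4, 73.1 kb downstream (chr1:77438415-77438614, plus strand): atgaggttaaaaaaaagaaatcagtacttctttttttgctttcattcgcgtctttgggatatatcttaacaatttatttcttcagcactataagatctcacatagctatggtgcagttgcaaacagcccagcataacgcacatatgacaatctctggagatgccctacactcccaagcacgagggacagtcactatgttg
Epha4, 74.4 kb downstream (chr1:77437123-77437322, plus strand): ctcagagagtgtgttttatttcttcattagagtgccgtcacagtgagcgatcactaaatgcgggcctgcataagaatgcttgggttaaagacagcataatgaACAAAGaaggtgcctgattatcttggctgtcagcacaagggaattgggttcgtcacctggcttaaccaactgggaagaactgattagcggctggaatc
At Ephb1 the lines give the pair of strongest peaks of the family, and at Epha1 the only mm9 peak of that gene.
Ephb1, 92.5 kb downstream (chr9:102164455-102164654, plus strand): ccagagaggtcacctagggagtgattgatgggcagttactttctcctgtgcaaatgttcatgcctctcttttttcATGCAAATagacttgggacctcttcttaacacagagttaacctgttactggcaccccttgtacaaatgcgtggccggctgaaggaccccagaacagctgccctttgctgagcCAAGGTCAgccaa
Ephb1, 149 kb downstream (chr9:102107913-102108112, plus strand): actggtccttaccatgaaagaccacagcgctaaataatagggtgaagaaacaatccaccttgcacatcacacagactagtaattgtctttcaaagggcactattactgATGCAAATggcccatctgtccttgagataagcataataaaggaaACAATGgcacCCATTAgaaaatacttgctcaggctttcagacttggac
Epha1, 7.62 kb upstream (chr6:42330789-42330988, plus strand): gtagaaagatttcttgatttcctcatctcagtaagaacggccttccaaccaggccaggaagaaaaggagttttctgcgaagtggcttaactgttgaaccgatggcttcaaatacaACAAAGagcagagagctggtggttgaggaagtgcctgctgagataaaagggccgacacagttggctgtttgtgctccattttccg

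Letters matching these motifs were present at some Eph receptor peaks and missing at others. The 2 strong Ephb1 windows each held an octamer, which 4.14% of all 13341 windows of the mm9 list held, and no other window among the 21 did. The Ephb1 window at 149 kb also held CATTGT and TAATGG on the minus strand, and the one at 92.5 kb held CAAGGTCA. At Epha4, 4 of 9 windows held any of the motifs: CTTTGT in 1, CATTGT in 2 and CAAGGTCA in 1, against 37.1%, 25.7% and 7.63% of all windows, and 68.5% of all windows held at least 1 motif. The window of the Epha4 peak at 73.1 kb, which had the highest enrichment of the locus in replicate 2 (12.89), held no match. This region is 1503 bp wide, and mm10 summits lay on either side of its middle, at 73.4 and 72.9 kb. Those summits were 567 bp apart, so the window may miss both, and its lack of a match does not describe them. Over the 21 windows the joint SOX2 and OCT4 site was found in 0 (2.88% of all windows), TAATGG in 2 (11.7%) and GGGNGTGG in 1 (8.04%). The GC content of the 9 Epha4 windows ran from 37.5% to 52.0% with a median of 45.5%, equal to the median over all windows.

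In the set of 15891 peaks that the authors called optimal by irreproducible discovery rate (IDR), 25 summits lay at the 9 genes. Of all optimal peaks, 84.9% overlapped any of the 300000 regions listed for replicate 2, so a place in this set does not mean detection in both replicates. At least 1 summit was found at 8 of 9 genes, all but Epha5, beside 67.1% of all protein-coding genes in the same kind of window. A summit whose peak overlapped the authors' stricter conservative set of 9431 peaks was found at 7 of 9 genes, beside 50.4% of all genes. The median count was 2 summits per gene against 1 over all genes, with windows not matched in length. This median depends on Epha1 and Epha2, whose 2 summits each lay 199 and 201 bp apart. Leaving out summits within 500 bp of a higher one gave these genes 1 summit each, and the median over all genes was not counted again that way. No summit of the 9 genes lay within 1 kb of the gene's TSS, a place where 2.38% of all genes had one, and the closest lay 7.57 kb away, upstream of Epha1. Of the 25 summits, 15 lay inside the gene itself, at Epha4, Ephb1 and Ephb2, and for 20 the nearest protein-coding TSS was that of the Eph receptor gene.

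**Figure D1:**
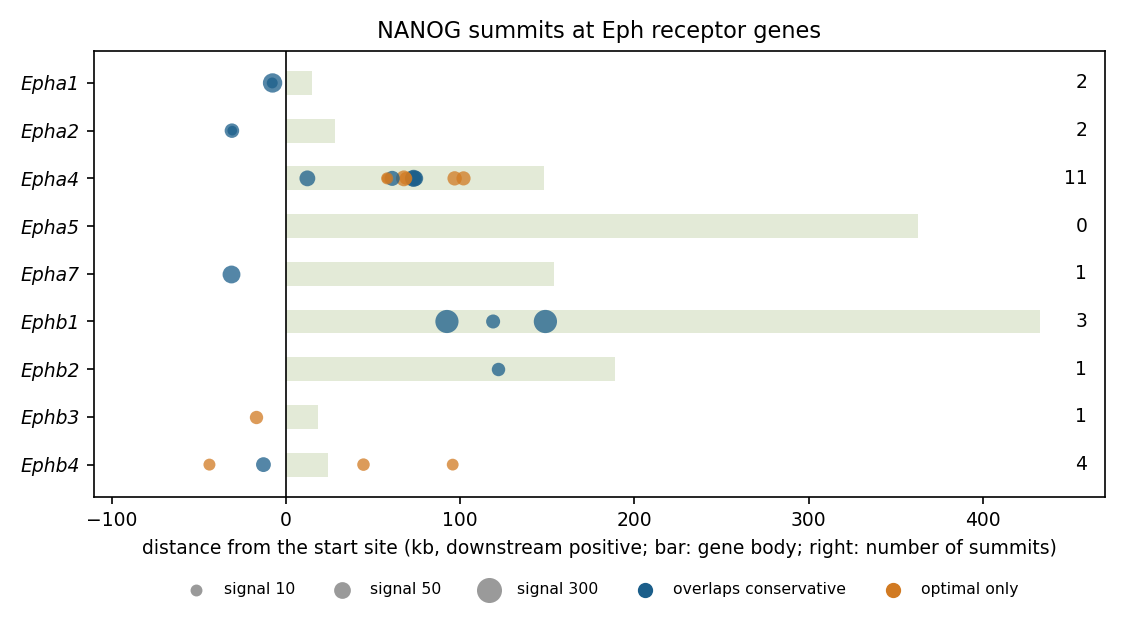
Positions of the 25 optimal NANOG summits relative to the TSS of each Eph receptor gene (x axis in kb, downstream positive). Bars are gene bodies, points are summits with a size that grows with the square root of the authors' signal, colour tells whether the peak overlaps a conservative peak, and the numbers at the right count the summits. Epha4 has 11 summits, all inside the gene, the pair of large points belongs to Ephb1, and Epha5 has none.

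Epha4 had the most summits of the family. The receptor it encodes is known for axon guidance in the spinal cord and cortex. The gene (mm10 chromosome 1, 77367182 to 77515107, minus strand, 148 kb) held 11 summits, all inside the gene body, and none lay in the 100 kb upstream. Only 31 of 21539 genes had more, 16 others had the same number, and 0.223% of genes had at least 11. Long genes have larger windows, so the count was also taken per length: Epha4 had 4.44 summits per 100 kb of window, a density reached by 0.265% of genes, where the median over all genes was 0.5. The next summit outside its window lay 190 kb beyond the edge, with a signal of 27.6.

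**Figure D2:**
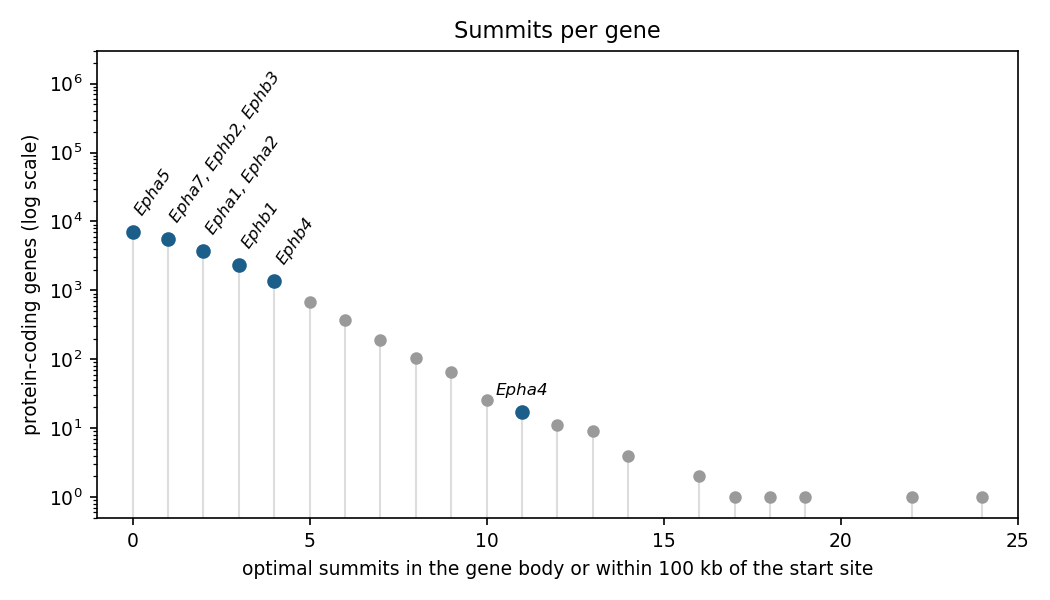
Number of protein-coding genes (log scale) by number of optimal summits in the gene body or within 100 kb of the TSS. Blue points hold the named Eph receptor genes: Epha4 sits at 11 summits, and the other 8 members lie between 0 and 4, where most genes are.

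The Epha4 summits were concentrated deep in the gene. Of the 11, 10 lay between 58.0 and 102 kb downstream of the TSS, in a stretch of 44.0 kb, and the last lay 12.4 kb downstream. The gaps between neighbouring summits ran from 215 bp to 45531 bp with a median of 3354 bp, while the median gap over the whole optimal set was 71015 bp. When summits at most 12.5 kb apart were joined, 8 of them formed a chain of 16.5 kb, and only 5 of 12602 such chains in the genome held at least 8 summits. A window of 50 kb held up to 10 summits at Epha4, and 3 separate places in the genome, this one included, reached that number. Both the chain and the window count the summits at 58.2 and 58.0 kb, 215 bp apart, as separate, and neither was counted again without the lower one. On mm9, the build with exon annotation here, all 9 peak centres at Epha4 lay in introns: 2 in intron 5, 2 in intron 4 and 5 in intron 3, of 61.5 kb, which also held the centre nearest to the TSS.

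In height the Epha4 peaks were moderate. The mm10 signal is the authors' enrichment value per peak, of unstated scale, and is used here to rank peaks within a list. The highest Epha4 peak, 73.4 kb downstream (chromosome 1, 77441576 to 77441766), had a signal of 93.9 and rank 2468 of 15891. Peaks at 67.8, 12.4 and 72.9 kb had signals of 68.5, 68.3 and 68.1, and those at 74.5 and 61.1 kb had 58.6 and 56.1. These 6 ranked between 2468 and 5239. The peaks at 96.9 and 102 kb had signals of 46.0 and 43.9, the one at 69.0 kb had 28.0, and a pair of neighbouring peaks at 58.2 and 58.0 kb had 23.2 and 9.85. The median over the 11 was 56.1, where the whole list had 40.2 with quartiles of 27.2 and 68.5. The last pair had summits only 215 bp apart, and the -log10 q-value of the one at 58.0 kb was only 0.541. Leaving out a summit within 500 bp of a higher one took the count at Epha4 from 11 to 10. The summits at 73.4 and 72.9 kb, 567 bp apart, lay just beyond this limit and still counted as 2.

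The replicates differed at Epha4, and the dense group was seen in replicate 1. Among as many top-ranked regions as the optimal set holds, replicate 1 had 12 at Epha4 and replicate 2 had 4. A count of 12 in replicate 1 was reached by 0.107% of genes, but a count of 4 in replicate 2 by 15.4%, so in replicate 2 alone Epha4 did not stand out in this way. Of the 11 optimal peaks, 11 overlapped a top region of replicate 1, 4 overlapped one of replicate 2, and 5 overlapped a conservative peak (the conservative set has 6 summits here, 1 of which meets no optimal peak). The peak at 58.0 kb met a top region of replicate 1 only through that of its neighbour at 58.2 kb. The replicate 1 region nearest to its own summit ranked 57663. A count of at least 6 in the conservative set was found at 0.947% of genes.

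The 4 Epha4 peaks found near the top of both replicates were those at 74.5, 73.4, 72.9 and 12.4 kb. Their ranks were 4329, 3063, 4726 and 3841 in replicate 1 and 15354, 2033, 2672 and 3828 in replicate 2, so the first only just entered the top regions of replicate 2. The peak at 61.1 kb was in the conservative set too, with ranks 5067 and 16197. The peaks at 69.0 and 102 kb ranked 15417 and 6722 in replicate 1 but 33232 and 214970 in replicate 2. The remaining 4, at 96.9, 67.8, 58.2 and 58.0 kb, overlapped no region of the whole replicate 2 list, and the nearest replicate 2 summits lay 2.03, 0.569, 2.33 and 2.12 kb away. The one at 67.8 kb was the highest Epha4 peak of replicate 1, at rank 2868. On mm9, where peaks were called for each replicate on its own, 12 of 22082 peaks of replicate 1 and 4 of 6618 of replicate 2 lay at Epha4. Those counts alone show no difference at the gene, since they come from mm9 lists of unlike length. There the peak at 67.9 kb was present in both, with an enrichment of 23.74 (q = 0.0025) in replicate 1 and 6.69 (q = 0.0742) in replicate 2. The peak nearest to the TSS ranked 3828 in replicate 2 on mm10. By distance from the TSS its counterpart in the combined mm9 list overlapped none of the 6618 mm9 peaks of that replicate. The 4 peaks of replicate 2 are thus not the same on both builds. Over all optimal peaks, 86.3% overlapped a top region of replicate 1 and 54.6% one of replicate 2.

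**Figure D3:**
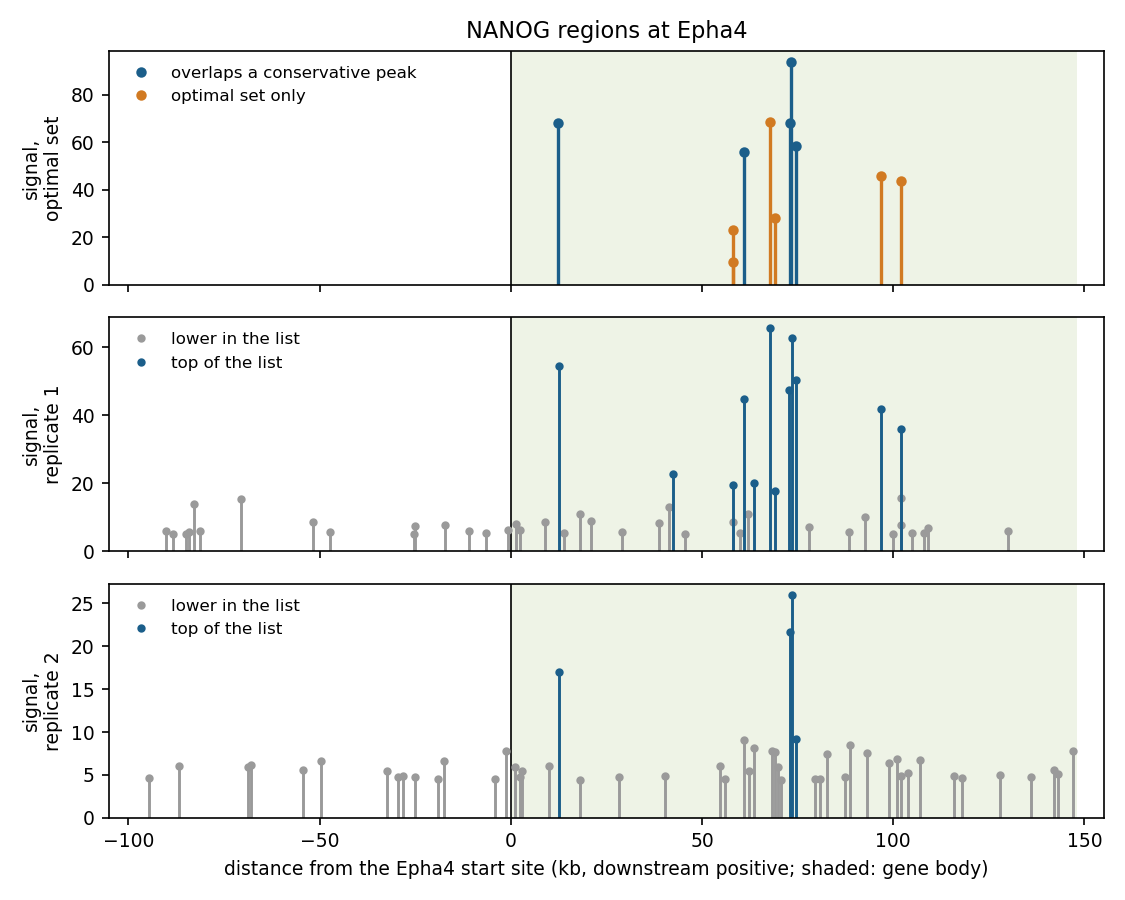
NANOG regions at Epha4 by distance from the TSS (kb, downstream positive, gene body shaded), with the authors' signal as height. The panels show the optimal set, coloured by overlap with the conservative set, and the relaxed lists of replicates 1 and 2, where blue marks the top 15891 regions and each list has its own signal scale. Replicate 1 has 12 top regions and replicate 2 has 4, at 12.4 kb and near 73 kb.

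Ephb1 showed the opposite arrangement, few peaks of great height. EphB1, a receptor known for guiding retinal axons at the optic chiasm, is encoded by a gene of 433 kb (chromosome 9, 101922128 to 102354693, minus strand) with 3 summits, all inside it. The peak 149 kb downstream of the TSS (102205552 to 102205905) had a signal of 316.9 and rank 154, and the one 92.5 kb downstream (102261993 to 102262325) had 312.6 and rank 159. The summit between them, 119 kb downstream, had a signal of 41.9 and rank 7567. A highest signal of at least that of Ephb1, 316.9, was found at 1.5% of genes. The pair of strong peaks ranked 145 and 175 in replicate 1 and 178 and 154 in replicate 2, so both replicates placed them near the top, and the middle peak ranked 9864 and 7823. All 3 overlapped the conservative set. On mm9 the strong peaks lay in introns 2 and 1, with enrichments of 36.08 and 34.23 in the combined list, 72.53 and 67.33 in replicate 1 and 29.13 and 37.73 in replicate 2. These are the windows with octamer letters printed above. Both ranked above every peak at Epha4, whose best rank was 2468 and whose highest enrichments on mm9 were 12.08 in the combined list, 23.74 in replicate 1 and 12.89 in replicate 2.

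**Figure D4:**
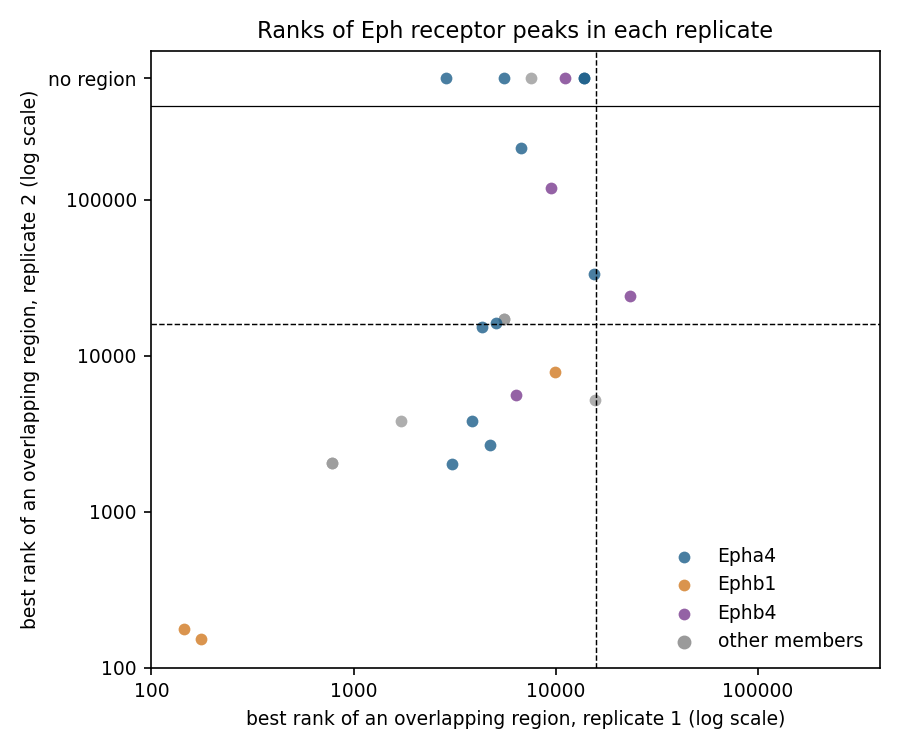
Best rank of an overlapping region in the relaxed list of replicate 1 (x) and replicate 2 (y) for the 25 Eph receptor peaks, on log scales, with dashed lines at rank 15891 and peaks without any replicate 2 region above the solid line. The pair of strong Ephb1 peaks lies between ranks 145 and 178 in both replicates, while 4 Epha4 peaks have no replicate 2 region.

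The other EphA genes had 0 to 2 summits. Epha1 (chromosome 6, 42358487 to 42373314, minus strand) had a peak 7.57 kb upstream with a signal of 152.8 and rank 1032, at ranks 779 and 2059 in replicates 1 and 2. Its second summit, 199 bp further upstream with a signal of 15.4, overlapped the same regions of both replicates, so the pair is 1 place listed as 2 peaks. Epha2, a receptor of epithelial cells, had a like pair 201 bp apart, at 30.9 and 30.7 kb upstream, with signals of 48.3 and 9.45, rank 5516 in replicate 1 and 17178 in replicate 2. For the higher of them, the TSS of Arhgef19 was nearer by a little, at 30.8 kb. Epha7, known for repulsive guidance and neural tube closure, had 1 summit in its window, 31.2 kb upstream (chromosome 4, 28781810 to 28782032), with a signal of 110.0, and ranks 1711 and 3807. Another summit, of signal 64.7, lay only 0.237 kb beyond the 3' end of Epha7 and so outside the window. Epha5 (363 kb, chromosome 5), a receptor of the developing brain, had no summit in the optimal or conservative set, no top region in either replicate and no mm9 peak, and the nearest optimal summit lay 384 kb beyond its window.

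The other EphB genes had lower peaks. Ephb2, whose receptor acts in synapse formation and in the ordering of cells in intestinal crypts, had 1 intragenic summit, 122 kb past the TSS, with a signal of 35.4 and rank 9170. Its rank was better in replicate 2 (5234) than in replicate 1 (15701). The TSS of Lactbl1 was nearer to it, at 91.5 kb. Ephb3, which acts with Ephb2 in the intestine, had 1 summit 16.8 kb upstream with a signal of 34.5, at rank 7562 in replicate 1 and without an overlapping region in replicate 2. Ephb4, the receptor of venous endothelium for ephrin-B2, had 4 summits between 43.8 kb upstream and 95.8 kb downstream, with signals of 22.4, 52.4, 26.8 and 21.3. Only the second, 12.8 kb upstream and inside the gene Slc12a9, was in the conservative set, with ranks 6385 and 5582. Ephb4 lies among closely spaced genes, and for 3 of these summits another gene (Srrt, Slc12a9 or Zan) had the nearer TSS. The last was just inside the window, 4.18 kb from its edge.

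The support of the 25 peaks of the 9 genes is given as a description, since it helped to choose them and peaks of 1 locus are not independent. A conservative peak overlapped 15 of 25 (60.0%), beside 56.7% of all optimal peaks. Top regions of replicate 1 overlapped 24 of 25 (96.0%), beside 86.3%, and those of replicate 2 overlapped 12 of 25 (48.0%), beside 54.6%. Both did so for 12 (48.0%), beside 50.4%, and any region of the whole replicate 2 list overlapped 19 of 25 (76.0%), beside 84.9%. These overlaps count both summits of the Epha1 pair, which met the same regions of each replicate. When summits had to lie within 100 bp, 14 of 25 matched the conservative set and 11 the top regions of both replicates. By gene, top regions of both replicates supported every summit of Epha1, Epha7, Ephb1 and Ephb2, none of Epha2 and Ephb3, 1 of 4 at Ephb4 and 4 of 11 at Epha4. The mm9 lists differed for Ephb2 and Ephb3. The combined mm9 list had 0 peaks at Ephb2 and 2 at Ephb3, that of replicate 1 had 2 and 4, and that of replicate 2 had 0 at both.

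The remaining Eph receptor genes and the ligands had summits as well, but no dense group. Of Epha3, Epha6, Epha8, Epha10 and Ephb6, 4 of 5 had a summit (67.1% of all genes) and 2 had one in the conservative set (50.4% of all genes), at Epha3 (57.4 kb downstream, signal 31.3) and Epha10 (56.4 kb upstream, inside Mtf1, signal 54.3). Epha8, a neighbour of Ephb2, had a summit of signal 13.0 only 1.47 kb upstream, found near the top in replicate 2 alone (rank 10763). Ephb6 had none. Among the 8 ephrin genes, 7 had a summit (67.1% of all genes), Efna2 being the exception, and none had more than 3. A summit in the conservative set was found at 3 of 8 (50.4% of all genes). Efnb3 and Efnb2 carried the higher ones. Efnb3 had a summit of signal 118.4 at 3.44 kb upstream, inside Wrap53. Another, of signal 118.6, lay 20.9 kb upstream, inside Trp53 and 1.66 kb from the TSS of that gene. Efnb2 had a conservative peak of signal 92.4 at 51.7 kb downstream. Of the ephrin-A genes, Efna5 had a conservative peak of signal 47.8, and Efna1, Efna3 and Efna4, which are neighbours and share summits, had signals of at most 30.2.

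Among 15 genes that act downstream of or beside Eph receptors, 11 had a summit and 8 had one in the conservative set, shares near the 67.1% and 50.4% of all genes. Fyn, a kinase of the SRC family, had an intragenic peak 56.5 kb past its TSS that reached a signal of 254.8, with ranks 290 and 366 in replicates 1 and 2. Src had 4 summits, none of them inside the gene, and the highest, of signal 169.8, lay 47.3 kb upstream, inside Manbal and 9.03 kb from its TSS. Tiam1, an exchange factor for the GTPase RAC, had the most summits of this list, 6, of which the highest had a signal of 104.6. Kalrn, another exchange factor, and Chn1, a RAC inhibitor needed for axon repulsion by EphA4, had 4 each, with highest signals of 67.2, inside Kalrn, and 59.6, upstream of Chn1 and inside Atf2. Vav2, Nck2, Rasa1 and Adam10 had none.

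Among the 5 genes nearest to Epha4 in number of summits, then in conservative summits and highest signal, were Enc1, Tenm4 and Pdzd2. Each had 11 optimal and 6 conservative summits, as Epha4 did. Tenm4 and Pdzd2 had windows of 840.0 and 480.0 kb against 248 kb, and Enc1 had the smallest window possible, 100 kb on either side of the TSS. Their highest signals were 79.5 at Enc1, 110.8 at Tenm4 and 208.0 at Pdzd2. Per 100 kb of window, Enc1 had 5.5 summits, above the 4.44 of Epha4, and Tenm4 and Pdzd2 had 1.31 and 2.29. The measure is 1 count per gene from 1 list, so it says nothing of what these genes share.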

How the data were processed

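Replicates 1 and 2 of a NANOG ChIP-seq experiment form 1 group, so no groups were compared. The read depth is unknown. Per the file headers (the deposited readme), relaxed mm10 lists went into IDR, 1 per replicate (300000 regions each) and 1 from both, and gave the optimal and conservative sets. For the peak caller, the aligner and the IDR threshold, the entry is: not given in the sources used here. On mm10 the deposited columns hold a signal of unstated scale, an integer score, q-values as -log10, and the summit offset. On mm9 the deposited columns hold an enrichment per peak whose reference is not stated, p-values as -log10, and untransformed q-values.

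Gene positions on mm10 came from a RefSeq table of GRCm38.p6 with 21887 protein-coding genes on assembled chromosomes. The strand was taken from the RefSeq promoter table for 17492 and from the mm9 annotation (GENCODE) by name for 4047, and 348 genes without one were left out. A gene's outermost 5' base was its TSS. Overlap means at least 1 bp shared, top regions of a replicate are its 15891 highest by signal, and a replicate rank is the best of any overlapping region. Exons, introns and sequence came from mm9. No coordinates were converted between the builds, and peaks were compared across them only by distance from the TSS. Coordinates are 1-based. The members and gene lists, and the motifs, were chosen with earlier results of these data known, and no test was made. All 9 members were named, other listed genes by conservative peak or highest signal, and the 5 genes nearest to Epha4 by count, of which some are not reported here. The counting code was tested on simulated data. Alternatives changed the window, peak set, overlap, build and replicate. Software was pandas 2.3.3, NumPy 2.4.6, matplotlib 3.10.9 and SciPy 1.17.1 under Python 3.11.15.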

Additional observations from a re-analysis of the deposited data

How the results depend on the processing

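The number of Eph receptor genes with a summit stayed between 6 and 8 of 9 under every alternative except the gene body alone, which gave 3. The number of summits at the 9 genes was 15 with the gene body alone, 15 with the conservative set and 15 with the upper part of the optimal set by signal (its higher-ranked 50%), and between 22 and 26 when either replicate was left out. At Epha4 it was 6 with the conservative set, where 82 genes had more and 0.947% of genes had at least as many (31 genes and 0.223% in the optimal set), and ran from 4 without replicate 1 to 12 without replicate 2, while the mm9 list gave 9. Peaks in the top of both replicates numbered 19 with the whole relaxed lists, and support from a single replicate ranged from 12 without replicate 1 to 24 without replicate 2. Some of these settings used fewer peaks or smaller windows and others did not, and the cause of each change was not tested. The alternative that left out summits within 500 bp of a higher one was chosen after seeing the data. No paired analysis was possible because the series has 1 group. Read depth is unknown, so a peak missing from replicate 2 was not detectable in its list and is not shown to be absent.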

Other observations

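Epha4 held further regions that the optimal set did not list. The conservative set had a sixth peak there that overlapped no optimal peak, 63.5 kb downstream of the TSS (mm10 chromosome 1, 77451466 to 77451829), with a signal of 28.4 and rank 8501 of 9431. Regions at this place ranked 13412 in replicate 1 and 26639 in replicate 2, and the combined mm9 list had a peak centred 63.4 kb downstream with an enrichment of 5.87. A region 42.3 kb downstream ranked 11588 in replicate 1, among its top regions, and was in neither final set. The highest region of replicate 1 in the gene ranked 2868 and the highest of replicate 2 ranked 2033, at different peaks (67.8 and 73.4 kb).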
